A study of Mus musculus with 12 samples.

Results

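Unstimulated skin fibroblasts of Nox4 KO mice were compared with those of WT mice by RNAseq. The comparison used the 6 control libraries of a series of 12, 3 from Nox4 KO cells (strain B6.129-Nox4tm1Kkr/J) and 3 from WT cells (strain C57BL/6), and the other 6 libraries came from the same genotypes after TGF-β2 at 10 ng/ml for 24 h. Genes were kept when their mean reached 1 CPM (the count scaled to a common library size) in either genotype, which left 11912 of the 21556 genes in the table. All cells were primary fibroblasts grown from abdominal skin in medium with serum and deprived of serum before the stimulation step. The KO animals carry a targeted Nox4 allele in every cell, and the name B6.129 marks a C57BL/6 stock that carries the allele from 129 embryonic stem cells. WT and KO animals descended from littermates but were kept as separate litters. The age and sex of the donor animals, and whether each library came from a different animal, were not stated, so p-values measure only the spread between these libraries.

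NOX4 is a membrane NADPH oxidase that passes electrons from NADPH to oxygen and releases mainly hydrogen peroxide. It works together with the subunit p22phox, encoded by Cyba, and needs no cytosolic organizer, so its output largely follows the amount of the protein. In fibroblasts it is best known as a gene that TGF-β induces while the cells turn into contractile myofibroblasts. The comparison asks how far the transcriptome of unstimulated fibroblasts differs when NOX4 is missing, before any TGF-β2 is given.

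Total counts were between 35118344 and 41728216 per library, and 15125 to 15538 genes had at least 1 read. The fibroblast genes Col1a1, Col1a2, Col3a1, Vim, Thy1, Pdgfra, Pdgfrb, Dcn and Lum were expressed in all 6 libraries, with Col1a1, the main collagen of skin, at 12277 to 17752 CPM. Defining genes of keratinocytes (Krt5 and Krt14), endothelium (Cdh5) and skeletal muscle (Myod1) were below 0.3 CPM in every library. Other markers of these cells were expressed. Their lists summed to 10.7 to 64.8 CPM for keratinocytes, 16.3 to 32.6 CPM for endothelium and 66.7 to 179 CPM for skeletal muscle. Replicate libraries of 1 genotype were no copies of each other (chi-square of 16.0 to 101 per gene for their counts), and each was kept as a sample. Whether the counting used the strand was not stated, so genes that overlap on opposite strands are named as uncertain.

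By the quasi-likelihood test of edgeR, with p-values adjusted after Benjamini and Hochberg, no gene differed between unstimulated Nox4 KO and WT fibroblasts. Of 11912 genes, 0 (0%) had an adjusted p-value under 0.05, and the smallest adjusted p-value of this test was 0.27. Before adjustment, 291 genes (2.44%) were higher and 340 (2.85%) lower in KO at a p-value under 0.05. On total counts without TMM scaling, this split was 540 higher and 165 lower. Without WT culture 1 the counts were 111 and 211, without KO culture 1 they were 177 and 205, and without KO culture 3 they were 477 and 552. Other count tests on the same reads called more genes. DESeq2 called 25 genes (0.210%), 9 higher and 16 lower in KO, and edgeR's exact test called 14 (0.118%), all of which were among the 25. DESeq2 gave no adjusted p-value for 15 genes.

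The fitted differences were small for most genes. The median size of the log2 fold change was 0.09, and the 5th and 95th percentiles of the signed values were -0.31 and 0.42. The 95% interval of the fold change stayed within 2-fold for 10488 genes (88.0%) and within 1.5-fold for 8656 genes (72.7%). Precision followed the level of expression. The interval lay within 2-fold for 97.1% of genes above 50 CPM, for 93.0% at 10 to 50 CPM, for 76.4% at 2 to 10 CPM and for 43.7% below 2 CPM. With 3 cultures against 3, the intervals of most genes below 2 CPM thus reached past 2-fold.

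Most large fitted differences came with groups that overlapped. Of 122 genes with a fitted fold of at least 2, 63 higher and 59 lower in KO, 93 (76.2%) had WT and KO libraries that overlapped. Over all genes, the 3 KO libraries lay above the 3 WT libraries for 705 genes (5.92%) and below them for 712 (5.98%). Both conditions together, no overlap and a fitted fold of at least 2, were met by 21 genes higher in KO (0.176%) and 8 lower (0.0672%). Some of these genes passed the filter of 1 CPM only through the genotype where they were high. They included Hlx, Sapcd2, Neurl1b, Cpa6, Plekha6, Pitx1, Efcab11 and Hoxa11, with WT means of 0.420 to 0.979 CPM. Gm4951 and AW011738, with KO means of 0.126 and 0.532 CPM, did so among the lower. The filter favours such genes, so these counts are no test.

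**Figure D1:**
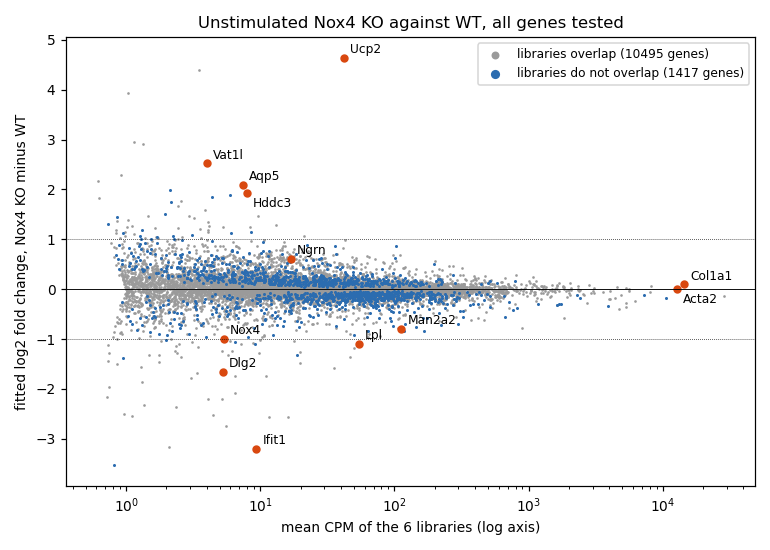
Fitted log2 fold change of Nox4 KO over WT (y axis) against the mean CPM of the 6 libraries (log x axis) for the 11912 genes tested, where blue points are genes whose WT and KO libraries do not overlap, dotted lines mark 2-fold, and named genes are orange whether or not they overlap. Most points lie close to 0, and Ucp2 and Ifit1 stand far from it although their libraries overlap.

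Nox4 itself (chr7:87246096-87398710, GRCm38) was the first check of the labels. Its level was 6.22, 5.48 and 9.66 CPM in WT cultures 1 to 3 and 2.65, 2.60 and 5.51 CPM in KO cultures 1 to 3. The highest KO value lay just above the lowest WT value, so the groups overlapped by 1 library. The fitted log2 fold change was -0.99 ± 0.37 (SE; unadjusted quasi-likelihood p = 0.034, adjusted p = 0.84), and a two-sided exact permutation test gave p = 0.2, where 3 against 3 allow no value below 0.1. Nox4 reads were present in all KO libraries, and a count over all exons of a gene does not tell which exons they came from. After TGF-β2, Nox4 was at 33.5 to 66.6 CPM in WT and at 17.99 to 27.8 CPM in KO, without overlap.

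The other catalytic subunits of the NADPH oxidase family were low in both genotypes. Nox3 had 0 reads in all 6 libraries, which allows up to 0.0719 to 0.0854 CPM per library for counting error, and Nox1, Duox1 and Duox2 stayed at or below 0.303 CPM. Cybb, the catalytic subunit of the phagocyte oxidase (NOX2), was at 1.00, 0.432 and 4.68 CPM in WT and 2.62, 0.481 and 0.505 CPM in KO, and its groups overlapped. Cyba, the partner of NOX4, was at 66.6 to 69.8 CPM in WT and at 72.3 to 79.9 CPM in KO, a log2 fold change of 0.16 ± 0.06 (SE) without overlap. Of 19 genes for oxidases and their partners, 8 could be tested. At an unadjusted p-value under 0.05, 1 (12.5%) was higher and 1 (12.5%), Nox4 itself, was lower, against 2.44% and 2.85% of all genes. The median log2 fold change of the 8 was -0.15. Over all genes tested the median was 0.0050. The list's median was -0.30 without WT culture 2 and -0.02 without WT culture 3.

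Genes of hydrogen peroxide removal and of superoxide dismutases were close to equal. All 19 genes of this list, catalase, superoxide dismutases, glutathione peroxidases, peroxiredoxins and thioredoxins, were tested, and the 95% interval of each lay within 2-fold. Gpx1, a glutathione peroxidase, was at 227 to 268 CPM in WT and 283 to 329 CPM in KO, with a log2 fold change of 0.28 ± 0.09 (SE). It was the 1 member (5.26%, against 2.44% of all genes higher) with an unadjusted p-value under 0.05. Of 18 targets of NRF2, the factor that answers oxidative stress, 15 had intervals within 2-fold, and the median log2 fold change of the 18 was -0.14. At an unadjusted p-value under 0.05, 1 (5.56%), the glutathione conjugate pump Abcc1, was lower, against 2.85% of all genes. Of these targets, Hmox1 had a log2 fold change of -0.45 and Nqo1 of 0.35, with unadjusted p-values of 0.198 and 0.455. For the 15 genes of the unfolded protein response, every interval lay within 2-fold and the median was 0.02. Of these, 0 were under an unadjusted p-value of 0.05. KO libraries lay above all WT libraries for 4 (26.7%) and below them for 0, against 5.92% and 5.98% of all genes.

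Genes of the contractile cytoskeleton, which mark myofibroblasts, were already strongly expressed without TGF-β2 and were nearly equal between genotypes. Acta2, smooth muscle α-actin, was at 13674, 13427 and 10885 CPM in WT and 12687, 13260 and 12255 CPM in KO. Per length, Acta2 had the highest level of all genes, with a mean of 5675 RPKM in WT and 5867 RPKM in KO. The log2 fold change of Acta2 was 0.0082 ± 0.13 (SE), with a 95% interval of -0.31 to 0.33. All 16 contractile genes had intervals within 2-fold, 0 were under an unadjusted p-value of 0.05, and their median log2 fold change was 0.0056. Summed over the list, WT culture 3 was lowest with 34700 CPM and the other 5 libraries had 39050 to 41530 CPM.

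Extracellular matrix genes had mostly negative differences, with log2 fold changes from -1.07 to 0.32. Of 34 tested, 27 had a negative log2 fold change, the median was -0.14, 2 (5.88%) were lower at an unadjusted p-value under 0.05 and 4 (11.8%) had KO libraries below all WT libraries. Over all genes, 2.85% and 5.98% met these conditions. Of the 34 intervals, 25 (73.5%) lay within 2-fold, and KO culture 3 was at least 2-fold below both other KO cultures for 5 of the genes. Fbn1, the microfibril protein fibrillin, was at 1962, 1809 and 2011 CPM in WT and 1460, 1667 and 1581 CPM in KO, a log2 fold change of -0.30 ± 0.09 (SE). Col12a1, a collagen associated with fibrils, was at 4089 to 4724 CPM in WT and 2959 to 3976 CPM in KO. Fn1 and Bgn, the genes of fibronectin and biglycan, had log2 fold changes of -0.18 and -0.12 without overlap. Col1a1 and Col1a2 overlapped, with log2 fold changes of 0.10 and 0.06.

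In the TGF-β and SMAD pathway, 28 of 28 genes were tested, 24 had intervals within 2-fold, and the median log2 fold change was -0.02. At an unadjusted p-value under 0.05, 2 members (7.14%) were lower in KO, against 2.85% of all genes, and 0 were higher. They were the type I receptor Tgfbr1 and the co-receptor Eng (endoglin). Tgfbr1 was at 77.8 to 105 CPM in WT and 57.5 to 71.7 CPM in KO. Eng was at 204, 153 and 186 CPM in WT and 66.6, 142 and 111 CPM in KO, and neither gene overlapped. The SMAD genes had log2 fold changes between -0.08 and 0.06.

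Few genes were apart between genotypes by more than 1 of the tests, and several of these lay on chromosome 7, near Nox4. Hddc3 (chr7:80343104-80350547), which encodes a phosphohydrolase of the SpoT family, was at 2.95, 3.56 and 3.42 CPM in WT and 15.1, 13.4 and 9.39 CPM in KO. All 3 KO cultures lay far above all WT cultures. The log2 fold change was 1.93 ± 0.20 (SE; 95% interval 1.44 to 2.41), with an adjusted p-value of 0.27 by the quasi-likelihood test, 1.55e-11 by DESeq2 and 2.8e-10 by the exact test of edgeR. The exons of Hddc3 overlap Man2a2 on the other strand, so reads from the 2 genes may be mixed. Man2a2, a Golgi mannosidase of N-glycan maturation, had the opposite direction, with 151, 137 and 142 CPM in WT and 96.8, 83.0 and 67.7 CPM in KO (log2 fold change -0.79 ± 0.13, SE).

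Ngrn, which encodes neugrin, a protein of mitochondrial ribosome assembly, differed by less in size but with very little spread. It was at 13.1, 13.2 and 13.7 CPM in WT and 20.3, 20.8 and 20.1 CPM in KO, and the gap between the genotypes was several times wider than the range within either. Its log2 fold change was 0.61 ± 0.07 (SE). Dlg2, a scaffold protein of the membrane-associated guanylate kinase family, was at 8.67, 8.58 and 6.60 CPM in WT and 2.91, 2.48 and 2.18 CPM in KO, without overlap and with a log2 fold change of -1.65 ± 0.18 (SE). Pgm2l1, which makes glucose 1,6-bisphosphate, was at 15.4 to 17.4 CPM in WT and 8.54 to 11.3 CPM in KO. Isg20, an RNA exonuclease, was at 12.8 to 13.6 CPM in WT and 7.85 to 9.58 CPM in KO. All of these were called by DESeq2 and, except for Isg20 (adjusted p = 0.146 by the exact test), by edgeR's exact test.

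**Figure D2:**
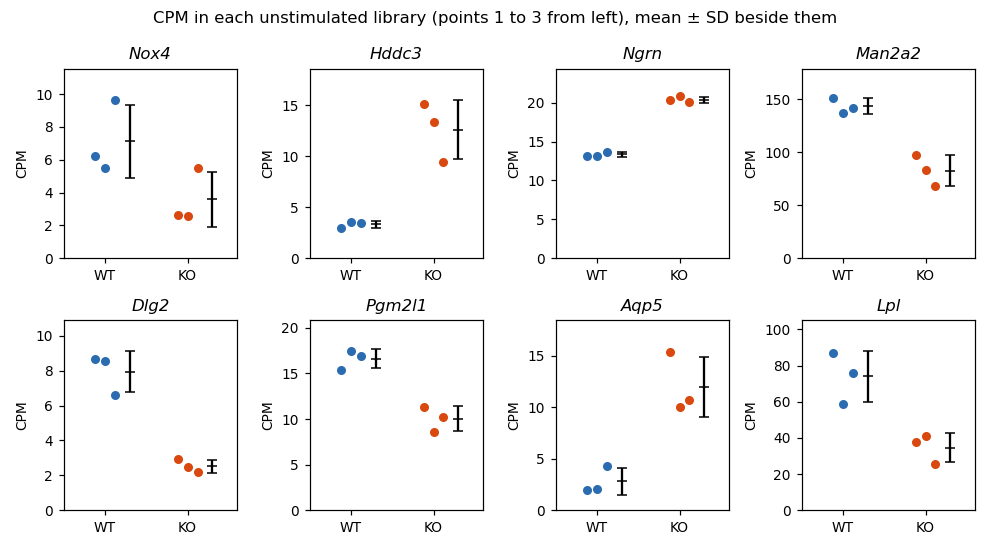
CPM (y axis, from 0) of 8 genes in each WT (blue) and Nox4 KO (orange) control culture, points 1 to 3 from left, with the mean ± SD of the 3 cultures beside them. The groups are apart for all genes shown but Nox4, whose KO culture 3 (5.51 CPM) lies above WT culture 2 (5.48 CPM).

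Promoters of genes on chromosome 7 are shown because 7 of the 25 genes called by DESeq2 lie within 20 Mb of the disrupted locus. The windows run 5′ to 3′ from 250 to 34 bases before the RefSeq start of Ngrn (chr7:80260965-80261181), Hddc3 (chr7:80342887-80343103) and Ucp2 (chr7:100493108-100493324), all on the plus strand of GRCm38.p6. They end at 34 bases so that each of the 3 also ends before the start that GENCODE gives its gene. The other genes of the 7 are not shown, either because the promoter table did not hold exactly 1 entry for them or, for Pgm2l1, because most of its window lies inside the gene in GENCODE. Capitals mark matches, on either strand, to the core of the antioxidant response element (TGACNNNGC) or to the GC box (GGGCGG). The AP-1 site (TGANTCA) and the TATA box (TATAAA) were searched too and had 0 matches in these windows.
Ngrn: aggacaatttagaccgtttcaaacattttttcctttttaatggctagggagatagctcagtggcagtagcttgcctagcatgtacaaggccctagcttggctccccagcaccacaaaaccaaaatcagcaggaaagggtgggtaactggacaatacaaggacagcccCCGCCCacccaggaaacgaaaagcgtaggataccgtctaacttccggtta
Hddc3: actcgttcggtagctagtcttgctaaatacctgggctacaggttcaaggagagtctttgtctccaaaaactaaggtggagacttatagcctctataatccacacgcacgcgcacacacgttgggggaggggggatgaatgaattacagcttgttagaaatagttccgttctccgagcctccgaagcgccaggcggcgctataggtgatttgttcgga
Ucp2: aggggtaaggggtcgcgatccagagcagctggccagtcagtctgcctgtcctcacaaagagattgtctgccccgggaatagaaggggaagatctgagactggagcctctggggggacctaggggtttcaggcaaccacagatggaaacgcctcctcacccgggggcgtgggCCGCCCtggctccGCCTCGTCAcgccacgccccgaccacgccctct

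The Ngrn and Ucp2 windows held 1 GC box each, and the Hddc3 window held no match to any of the 4 motifs. Ucp2 alone of the 3 held a match to the antioxidant response element core, on the minus strand 58 to 66 bases before the start. Of 32851 promoter windows of the same 217 bases, 8.58% held that core, 28.0% a GC box, 9.84% the TATA box and 6.01% the AP-1 site. The matches describe these letters only.

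Genes near Nox4 reached small p-values more often than genes elsewhere. Of 899 genes tested on chromosome 7, 70 (7.79%) had an unadjusted p-value under 0.05, against 3.28% to 7.34% on the other chromosomes. The share was higher within 20 Mb of Nox4 than beyond. It was 25.9% of 27 genes within 5 Mb of Nox4, 32.8% of 58 genes at 5 to 10 Mb, 10.2% of 98 at 10 to 20 Mb, 4.88% of 164 at 20 to 40 Mb and 4.54% of 551 beyond, next to 5.09% on all other chromosomes. The median size of the log2 fold change was 0.19 and 0.20 in the nearest bins and 0.09 on other chromosomes, while the median range among the WT cultures was 0.26 and 0.23 there and 0.21 elsewhere. Over all 183 genes within 20 Mb other than Nox4 the share was 19.7%, and leaving out 1 library gave 12.4% (without WT culture 1) to 21.3%. Neighbouring genes are not independent replicates, so no test of the shares was made.

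Of 184 genes tested within 20 Mb of Nox4, DESeq2 called 7, namely Hddc3, Dlg2, Ngrn, Man2a2, Pgm2l1, Isg20 and Ucp2, and it called 18 of the 11728 genes elsewhere. Both directions occurred among neighbours. Bnc1, a zinc-finger factor of basal epithelium, was at 1.16 to 4.32 CPM in WT and 5.56 to 13.6 CPM in KO, a log2 fold change of 1.88 ± 0.53 (SE). Sh3gl3 and Fah, genes of endocytosis and of tyrosine breakdown, had log2 fold changes of 0.99 and 0.89, and Fzd4 and Sytl2, a Wnt receptor and a vesicle protein, of -0.59 and -0.69. Rccd1 was at 11.2 to 14.1 CPM in WT and 17.4 to 19.5 CPM in KO and overlaps Prc1 on the other strand. The strain origin of the chromosome around Nox4 in each culture was not tested.

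**Figure D3:**
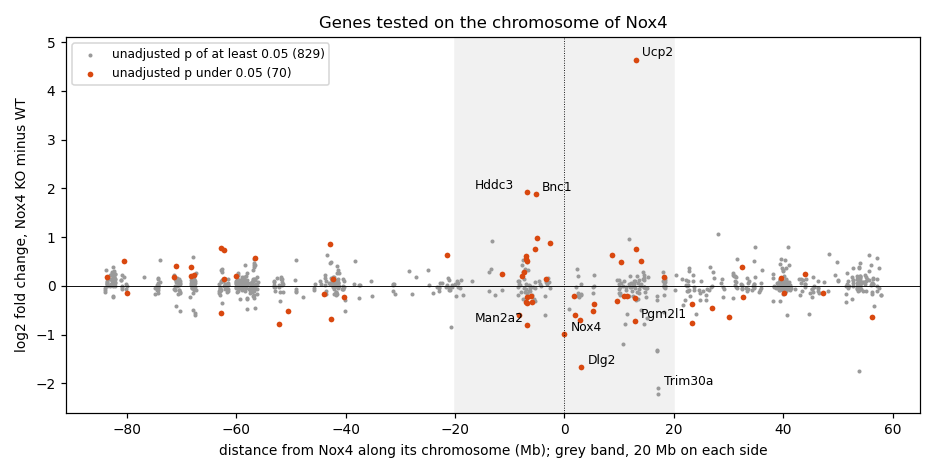
Log2 fold change of Nox4 KO over WT (y axis) for the 899 genes tested on the chromosome of Nox4, by distance from Nox4 in Mb (x axis), with the 70 genes at an unadjusted p-value under 0.05 in orange and the 20 Mb on each side shaded. The orange points with the widest differences crowd around Nox4, and the share of orange points beyond 40 Mb is 4.54%.

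Ucp2 had the largest fitted difference of any gene, yet it did not separate the genotypes. It encodes uncoupling protein 2, a carrier of the inner mitochondrial membrane. Its level was 2.65, 1.65 and 5.36 CPM in WT and 5.30, 135 and 103 CPM in KO. KO cultures 2 and 3 were far above all WT cultures, and KO culture 1 lay within the WT range. The fitted log2 fold change was 4.64 ± 1.17 (SE; adjusted p = 0.84 by the quasi-likelihood test, 0.0298 by DESeq2 and 0.0327 by the exact test of edgeR), and a two-sided exact permutation test gave p = 0.2. Ucp2 overlaps Dnajb13 on the other strand. The other 8 tested genes for mitochondrial uncoupling and carriers had intervals within 2-fold. The 13 proteins encoded by mitochondrial DNA were not analysed here.

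KO culture 1 also stood apart from KO cultures 2 and 3 in 6 other genes of the same stretch of chromosome. Within 20 Mb of Nox4, 7 of 184 tested genes (3.80%) had KO culture 1 at least 2-fold above or below both other KO cultures, against 82 of 11728 (0.699%) elsewhere. WT culture 3 likewise stood apart from its 2 others for 8 (4.35%) there and 259 (2.21%) elsewhere, and KO culture 3 for 3 (1.63%) and 271 (2.31%). The 7 genes of KO culture 1 all lay 10.7 to 17.1 Mb beyond Nox4, on the side of Ucp2. Myo7a, an unconventional myosin, was at 71.9, 50.03 and 85.6 CPM in WT, 74.4 CPM in KO culture 1, and 9.55 and 7.50 CPM in KO cultures 2 and 3. Trim12a, a member of a cluster of antiviral TRIM genes, had 294, 324 and 294 reads in WT and 381 in KO culture 1, but 0 reads in KO cultures 2 and 3, which allows up to 0.0719 and 0.0825 CPM. Trim30d had 148 to 455 reads in WT, 167 in KO culture 1 and 0 in KO cultures 2 and 3.

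For these genes KO culture 1 lay within the range of the WT cultures or, for Trim12a, just above it, and KO cultures 2 and 3 lay outside it. Trim30a was at 5.42 to 19.1 CPM in WT, 5.56 CPM in KO culture 1 and 1.37 and 0.505 CPM in the others. Trim34a was at 1.97 to 3.57 CPM in WT and at 2.03, 0.481 and 0.532 CPM in KO. The split was less clear for Folr2, a folate receptor, at 2.24, 1.81 and 8.52 CPM in WT and 5.14, 1.37 and 0.798 CPM in KO. In the libraries of the same number after TGF-β2, KO library 1 again stood apart from KO libraries 2 and 3 for the genes given next. Whether the libraries of 1 number came from the same cultures was not stated. Trim12a had 719 reads in KO library 1 and 0 in KO libraries 2 and 3, Myo7a was at 111, 17.5 and 19.2 CPM and Ucp2 at 9.68, 182 and 144 CPM in the stimulated KO libraries 1 to 3. In the stimulated WT libraries Myo7a was at 48.1 to 98.5 CPM and Ucp2 at 5.21 to 8.38 CPM. KO library 1 thus lay above the WT range for both, and the groups of Ucp2 did not overlap there. TRIM genes of this cluster are close copies of each other and reads with more than 1 location had been discarded, so their single values are uncertain. These genes were singled out after their values were seen.

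**Figure D4:**
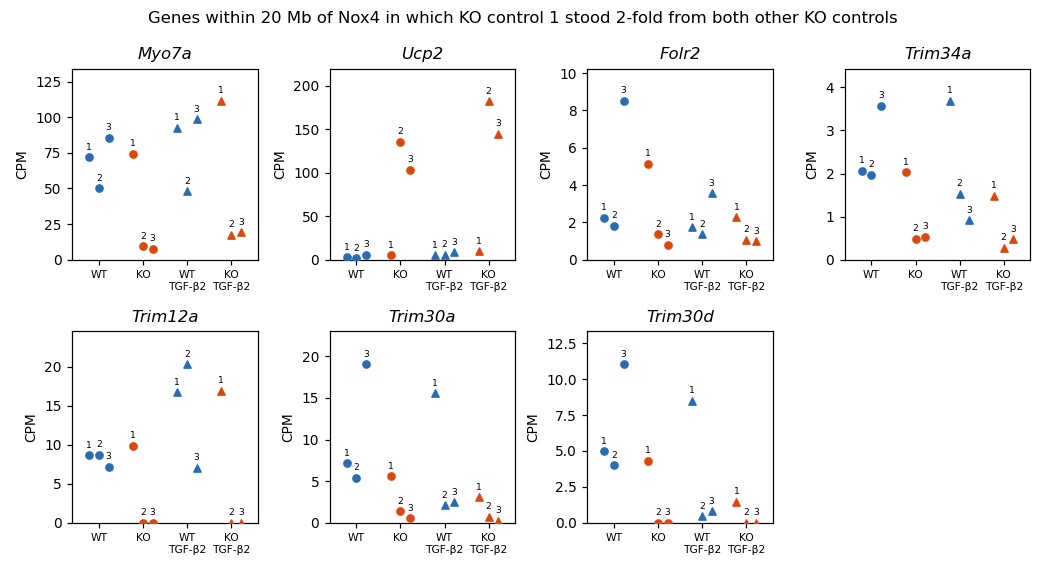
CPM (y axis, from 0) of the 7 genes within 20 Mb of Nox4 in which KO control culture 1 stood at least 2-fold from both other KO controls, in WT (blue) and KO (orange), unstimulated (circles) and after TGF-β2 (triangles), with the library number above each point. In unstimulated KO cells point 1 lies at least 2-fold from points 2 and 3 in each panel, point 2 of Folr2 (1.37 CPM) lies close to the lowest WT point (1.81 CPM), and Trim12a and Trim30d are at 0 in KO libraries 2 and 3 of both conditions.

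Away from Nox4, Aqp5, Vat1l and Lpl were among the genes without overlap and with a fitted fold of at least 2. Aqp5, a water channel of glands, was at 1.97, 2.10 and 4.32 CPM in WT and 15.3, 9.99 and 10.7 CPM in KO. Its log2 fold change was 2.09 ± 0.35 (SE; adjusted p = 2.66e-05 by DESeq2), and every KO culture was more than 2-fold above every WT culture. Vat1l was at 0.472, 1.81 and 1.24 CPM in WT and 11.4, 4.93 and 4.07 CPM in KO, with a log2 fold change of 2.52 ± 0.59 (SE). Lpl, the lipase that releases fatty acids from lipoproteins, was at 87.1, 58.9 and 75.9 CPM in WT and 37.5, 40.8 and 25.5 CPM in KO. The groups of Lpl did not overlap, with a log2 fold change of -1.10 ± 0.21 (SE; adjusted p = 0.00184 by DESeq2). Ptgis, prostacyclin synthase, was at 143 to 176 CPM in WT and 215 to 245 CPM in KO.

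The remaining genes called by DESeq2 were mostly lower in KO by less than 2-fold. Of the 25, 7 had a fitted fold of at least 2 and 24 had groups that did not overlap, the exception being Ucp2. Among the lower ones were Pappa, a protease that frees insulin-like growth factors, at 233 to 262 CPM in WT and 164 to 198 CPM in KO, and Lamc1, a laminin chain, at 559 to 604 CPM in WT and 413 to 486 CPM in KO. Glis3, Ebf1 and Ncoa6, which act in transcription, had log2 fold changes of -0.61, -0.58 and -0.25. Myrf, a membrane-bound transcription factor, was at 19.9 to 30.2 CPM in WT and 38.4 to 51.8 CPM in KO. Islr, a secreted leucine-rich protein of mesenchymal cells, was called by no test. It was at 54.6, 46.7 and 93.8 CPM in WT and 30.8, 41.0 and 32.0 CPM in KO, a log2 fold change of -0.91 ± 0.27 (SE; adjusted p = 0.165 by DESeq2) without overlap, and it shares exons with Islr2 on the same strand.

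Genes of body position had mostly positive log2 fold changes. The list holds HOX, PITX, TBX and EMX factors, which fibroblasts keep on from the site of the body they came from. Of 21 tested, 15 were above 0 and the median log2 fold change was 0.22. At an unadjusted p-value under 0.05, 6 (28.6%) were higher in KO and 0 lower, against 2.44% and 2.85% of all genes. KO libraries lay above all WT libraries for 5 (23.8%), against 5.92% of all genes. Pitx1 and Hoxa11 passed the filter of 1 CPM only through KO, with WT means of 0.854 and 0.979 CPM. The filter favours low genes that are high in 1 genotype, so these shares do not test the list. Pitx1, a factor of the hind limb and lower body, was at 0.589, 0.539 and 1.43 CPM in WT and 3.79, 2.60 and 3.83 CPM in KO (log2 fold change 1.98 ± 0.42, SE; adjusted p = 0.0218 by DESeq2). Hoxa11 was at 0.459 to 1.39 CPM in WT and 1.64 to 4.23 CPM in KO. Hoxd9 was at 0.796 to 1.41 CPM in WT and 1.52 to 2.90 CPM in KO, and Hoxa9 at 8.15 to 11.4 CPM in WT and 12.0 to 16.2 CPM in KO. Genes of the HOXC cluster from Hoxc6 to Hoxc11 had log2 fold changes of -0.02 to 0.19. Where on the abdomen the skin was taken from in each animal was not stated.

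Genes of dermal fibroblast lineages gave values in both directions. Of 17 tested, 1 (5.88%) was higher and 3 (17.6%) lower at an unadjusted p-value under 0.05, against 2.44% and 2.85% of all genes, and the median log2 fold change was -0.02. Dlk1, a marker of the reticular lineage of deep dermis, was at 41.4, 107 and 70.8 CPM in WT and 147, 117 and 136 CPM in KO. The receptors of platelet-derived growth factor had KO libraries below all WT libraries, with Pdgfra at 318 to 465 CPM in WT and 198 to 306 CPM in KO and Pdgfrb at 899 to 988 CPM in WT and 583 to 818 CPM in KO. Fap, the fibroblast activation protease, was at 6.28, 3.86 and 5.39 CPM in WT and 2.47, 2.98 and 2.50 CPM in KO (log2 fold change -0.96 ± 0.22, SE). In bulk RNA, fewer cells of a kind and less RNA per cell cannot be told apart.

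Genes of adipocytes had mostly negative log2 fold changes. Of 16 genes, 9 could be tested, 7 of these were below 0, and the median was -0.38, or -0.71 without KO culture 2. The 2 members without overlap (22.2%, against 5.98% of all genes below) were Lpl and Cebpa, a factor of fat cell differentiation, at 8.01 to 15.8 CPM in WT and 5.43 to 7.60 CPM in KO. Adipoq and Plin1, which define mature fat cells, were at 0.322 CPM or less in every library. Chemokine and cytokine genes had a median of -0.43 over 14 tested. Of these, 2 (14.3%) were lower at an unadjusted p-value under 0.05, against 2.85% of all genes. KO libraries lay below all WT libraries for 2 (14.3%), against 5.98% of all genes. Ccl7, a chemoattractant of monocytes, was at 222 to 337 CPM in WT and 117 to 208 CPM in KO, and Ccl11 (eotaxin) was at 1.03 to 3.13 CPM in WT and 0.346 to 1.04 CPM in KO, where the groups overlapped.

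Genes of sugar metabolism and hypoxia had small fitted differences. Of 21 tested, 20 had intervals within 2-fold and the median was -0.08. At an unadjusted p-value under 0.05, 3 (14.3%) were lower and 1 (4.76%) higher, against 2.85% and 2.44% of all genes. KO libraries lay below all WT libraries for 2 (9.52%) and above them for 1 (4.76%), against 5.98% and 5.92% of all genes. Vegfa, the angiogenic growth factor, was at 255 to 281 CPM in WT and 180 to 239 CPM in KO without overlap, and Pgk1, a glycolytic enzyme, was at 12.2 to 12.4 CPM in WT and 14.1 to 15.3 CPM in KO. For cholesterol and fatty acid synthesis the median over 18 genes was 0.08, or -0.06 without KO culture 1. The desaturase gene Scd1, with a log2 fold change of 0.42, was the 1 member at an unadjusted p-value under 0.05. This was 5.56% of the list, against 2.44% of all genes higher. The 16 clock genes tested had a median of -0.08, or 0.07 without WT culture 3, and Nr1d1, a repressor of the clock, was at 67.1 to 74.1 CPM in WT and 56.8 to 65.5 CPM in KO. Of 14 immediate early and heat shock genes, Jund alone (7.14%, against 2.44% of all genes higher) was under an unadjusted p-value of 0.05. Its log2 fold change was 0.24. Cell cycle genes had a median of 0.42 over 22 tested with 0 under that limit, and 9 of the 22 were at least 2-fold lower in WT culture 3 than in both other WT cultures.

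Single cultures accounted for much of the spread. Within WT, 36 to 459 genes were at least 2-fold apart between a pair of cultures, within KO 134 to 655, and between genotypes 24 to 627. By this count, the pair of cultures nearest to each other came from different genotypes. By the median size of the log2 difference it was WT cultures 1 and 2 (0.0908), followed by WT culture 1 and KO culture 2 (0.0938). WT culture 3 was at least 2-fold above both other WT cultures for 167 genes and below them for 100, and KO culture 3 was so for 131 and 143 genes within KO. KO culture 1 was so for 67 and 22 genes, and each of the other 3 libraries for at most 9 in either direction. The biological coefficient of variation was 16.3% in WT and 18.8% in KO. The first principal component held 40.6% of the variance and put both cultures numbered 3 at 19.2 and 25.9, apart from the other 4 at -20.9 to -5.90. The second held 30.4% and put them at opposite ends, with WT culture 3 at 21.2 and KO culture 3 at -26.9.

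Few genes were shared by the cultures numbered 3. There were 6 genes at least 2-fold above and 3 at least 2-fold below all 4 other libraries in both. Tnxb, a tenascin of loose connective tissue, was at 48.3 and 65.6 CPM in WT and KO culture 3 and at 11.4 to 17.6 CPM in the others. Sema3c, a secreted guidance protein, was at 611 and 903 CPM against 191 to 277 CPM. Gjb2, a gap junction connexin, was at 15.6 and 4.81 CPM against 83.9 to 164 CPM. The other genes were Wnt2, Prg4, Ccdc3 and Pid1 above and Trpc6 and Pcp4l1 below. These genes were named after their values were seen.

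WT culture 3 had a high level of interferon-stimulated genes. Isg15, a ubiquitin-like modifier, was at 4.60, 4.07 and 74.1 CPM in WT and 6.77, 5.65 and 1.54 CPM in KO. Ifit1, which binds foreign RNA, was at 1.89, 5.31 and 43.4 CPM in WT and 2.67, 1.71 and 1.14 CPM in KO. In both genes WT cultures 1 and 2 lay with or near the KO cultures. Of 21 interferon genes tested, 18 were at least 2-fold higher in WT culture 3 than in both other WT cultures. Summed over the list, WT culture 3 had 972 CPM and the other 5 libraries 148 to 244 CPM. The median log2 fold change of the list was -1.74 with all libraries and 0.0049 without WT culture 3. With all libraries, Ifit1 and Usp18 were lower in KO at an unadjusted p-value under 0.05, which is 9.52% of the list, against 2.85% of all genes.

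Macrophage markers also differed by culture rather than by genotype. All 15 were tested and overlapped. Their summed level was 94.8, 55.8 and 249 CPM in WT and 191, 75.3 and 42.0 CPM in KO, and 12 of the 15 were at least 2-fold above both others of the genotype in WT culture 3 and 12 in KO culture 1. Lyz2, the lysozyme of myeloid cells, was the most abundant at 18.7 to 117 CPM, and C1qb, a complement component, was at 1.38 to 14.3 CPM. Cybb, at 4.68 and 2.62 CPM in these cultures and at 0.432 to 1.00 CPM in the others, moved with them. Folr2, named above among the genes near Nox4, is also expressed by macrophages and was highest in WT culture 3 (8.52 CPM) and KO culture 1 (5.14 CPM). The part of macrophages in these values was not tested. Genes of the Y chromosome summed to 162 to 202 CPM in all 6 libraries.

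Keratinocyte, endothelial and skeletal muscle markers were thinly expressed, with 3 of 12, 3 of 10 and 2 of 11 genes tested. Perp, a desmosome gene, was at 56.4 CPM in KO culture 3 and at 6.28 to 17.2 CPM in the others, and Tek, an endothelial receptor, was at 3.86 to 5.02 CPM in WT and 2.10 to 3.42 CPM in KO. Of 11 Schwann cell and melanocyte markers, 5 were tested, and Mbp, a myelin protein gene, was at 2.89 to 4.21 CPM in WT and 4.77 to 7.32 CPM in KO. The 5 pericyte markers tested overlapped, with a median of -0.08.

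**Figure D5:**
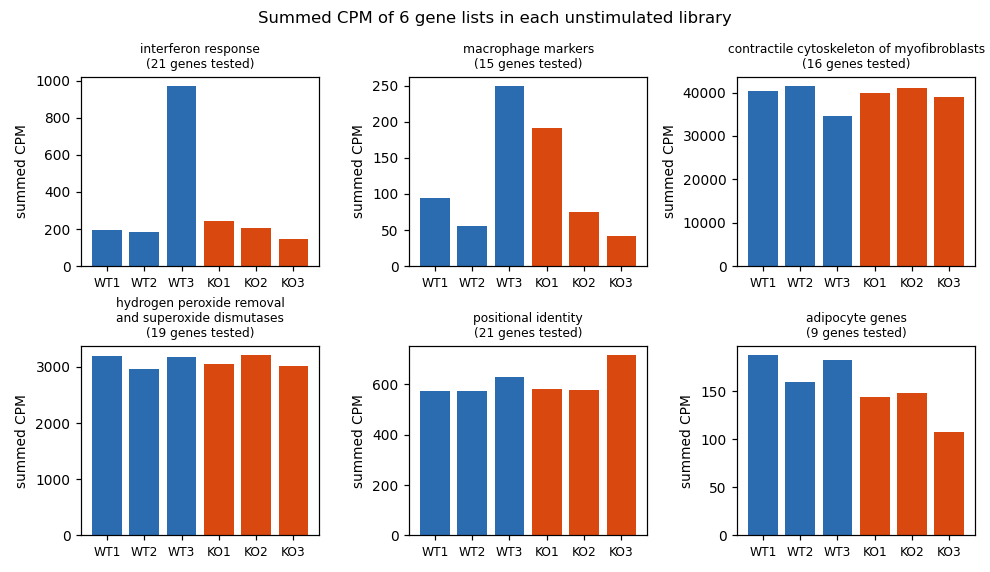
Summed CPM (y axis, from 0) of 6 gene lists in each WT (blue) and Nox4 KO (orange) control library. The interferon list is high in WT culture 3 (972 CPM), the macrophage list in WT culture 3 (249 CPM) and KO culture 1 (191 CPM). Contractile genes and genes of hydrogen peroxide removal and superoxide dismutases are at similar sums in all libraries.

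The 29 genes without overlap and with a fitted fold of at least 2 were followed in the TGF-β2 libraries. These are other libraries, but they may come from the same cultures. Deviations from the group mean were correlated across genes between the control and TGF-β2 libraries of 1 number, with r of 0.769, 0.694 and 0.749 for KO numbers 1 to 3 and 0.093, 0.418 and 0.544 for WT. Agreement between the conditions is therefore not independent evidence of a difference between the genotypes. Some of the 29 had passed the filter in control cells only through the genotype where they were high. After TGF-β2, 21 of the 29 could be tested. The direction was the same for all 21, against 47.0% of the 11471 genes tested in both conditions. The groups of 11 of the 21 did not overlap, and 7 of these were again at least 2-fold apart. Over all 11583 genes tested after TGF-β2, KO libraries lay above all WT libraries for 507 (4.38%) and below them for 708 (6.11%).

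Hddc3 was at 2.43 to 3.11 CPM in WT and 7.59 to 9.08 CPM in KO after TGF-β2, Aqp5 at 0.978 to 2.05 CPM and 2.81 to 4.36 CPM, and Bnc1 at 1.19 to 1.81 CPM and 3.19 to 7.62 CPM. All 3 kept their direction without overlap. Dlg2 was at 1.19 to 1.38 CPM in WT and 0.355 to 0.552 CPM in KO. Pitx1 and Hoxa11 overlapped there, with log2 fold changes of 1.04 and 1.45. The interaction of genotype and stimulation over all 12 libraries gave 0 genes at an adjusted p-value under 0.05 of 12024 tested by edgeR's quasi-likelihood test, with a smallest adjusted p-value of 0.888 and 310 genes at an unadjusted p-value under 0.05. With the library number within each genotype as a block, it again gave 0 genes, with a smallest adjusted p-value of 0.145 and 899 genes at an unadjusted p-value under 0.05. Whether libraries of 1 number share a culture was not stated.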

How the data were processed

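Of 12 RNAseq libraries from primary fibroblasts of mouse skin, the 3 WT and 3 Nox4 KO control libraries were compared. The authors aligned the reads to GRCm38 (STAR 2.4), dropped those that mapped to several places, and assigned the rest to genes (featureCounts 1.4.6) by the joined exons of all protein-coding transcripts. The raw counts per gene were deposited with no normalization or filter. The strand setting of the counting is not given in the sources used here.

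All values were computed from the counts with R 4.3.3, edgeR 4.0.16 and DESeq2 1.42.0. Each identifier was matched to GENCODE M21 for symbol, position and exon length. CPM of tested genes used library totals scaled by TMM, CPM of other genes and the limits of a count of 0 used the total counts, and RPKM used the total counts and the exon length. Genes below 1 CPM in both group means were not tested. Genes were tested by the quasi-likelihood method of edgeR, adjusted after Benjamini and Hochberg with a limit of 0.05, with the standard error derived from its F statistic. Fold changes are log2 values of Nox4 KO over WT. Principal components and 2-fold distances between cultures used log2(CPM + 0.5). A count of 0 allows up to 3 counts, and such limits cover counting error only. The interaction was fitted over all 12 libraries.

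The comparison, the gene lists and the rule for naming genes were chosen with earlier results of these data known. The rule took the NOX and DUOX genes, Ucp2, Hddc3 and Islr, genes called by any count test, the smallest p-values and the largest differences without overlap in each direction, the highest levels, the largest spread within genotypes, the smallest p-values within 20 Mb of Nox4, and the members of 26 lists. Genes in which single cultures stood apart were named after their values were seen.

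Alternatives were DESeq2, the exact, robust and legacy tests of edgeR, other normalizations and filters, all 12 libraries, a replicate block, windows of 10 and 40 Mb, and leaving out each library. The bias-adjusted quasi-likelihood fit, leaving out both libraries numbered 3, and the interaction with the library number within each genotype as a block were chosen after seeing the data. Scripts were tested on simulated data.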

Additional observations from a re-analysis of the deposited data

How the results depend on the processing

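The number of genes at an adjusted p-value under 0.05 was 0 in the quasi-likelihood test and stayed 0 with upper-quartile scaling, DESeq2 size factors, total counts, each other filter, the legacy, robust and bias-adjusted fits, a replicate block, and without both libraries numbered 3. It was 25 by DESeq2, 14 by edgeR's exact test and 2 (Dlg2 and Hddc3) with all 12 libraries in the fit. Leaving out each library in turn gave 0 to 1, the 1 being Aldh1a3 without KO control 2. Without TMM scaling, on total counts only, 540 genes were higher and 165 lower at an unadjusted p-value under 0.05, and 1243 and 332 did not overlap, so the balance of directions depends on the scaling. The fit of all 12 libraries gave 169 higher and 141 lower. Same-numbered WT and KO controls deviated together with correlations of 0.157, 0.0473 and 0.283, so the numbers were not taken as pairs. With the number as a replicate block, 462 genes were higher at an unadjusted p-value under 0.05.

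With both libraries numbered 3 left out, 514 were higher and 541 lower, and 2682 and 2636 did not overlap. Leaving out 1 library gave 111 to 477 higher, 205 to 552 lower, 1061 to 1818 without overlap above and 1045 to 1889 below, where fewer libraries make a lack of overlap more frequent by construction.

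Genes whose direction turned had no call in any setting. Without both libraries numbered 3 the log2 fold changes were -0.062 for Acta2, -0.038 for Actb, 1.10 for C1qb, 1.11 for Cybb, 0.10 for Gbp3, 0.52 for Isg15 and 0.32 for Oasl2. Leaving out 1 library gave -0.090 to 0.067 for Acta2, -0.12 to 0.16 for Actb, -1.52 to 0.64 for C1qb, -0.049 to 0.20 for Col1a1, -2.05 to 0.75 for Cybb, -0.059 to 1.08 for Gjb2, -3.08 to 0.11 for Isg15, -0.037 to 0.12 for Lgals1, -0.096 to 0.091 for S100a6, -0.10 to 0.012 for Sparc and -0.086 to 0.077 for Tagln. The cause was not tested. Hddc3 kept its direction in all settings, with log2 fold changes of 1.78 to 2.12. Unadjusted p-values fell under 0.05 for 30.6% of genes within 10 Mb of Nox4 and 12.7% within 40 Mb. With 3 cultures a genotype, the 95% interval stayed within 2-fold for most genes above 10 CPM and for 43.7% below 2 CPM. The interaction gave 0 genes at an adjusted p-value under 0.05 with and without the library number within each genotype as a block. At an unadjusted p-value under 0.05 it gave 899 and 310.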
